A study of Mus musculus with 12 samples.

Results

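The genes described here are the 10 core genes of MHC class I antigen presentation in mouse ATDC5 cells: B2m, H2-K1, H2-D1, Tap1, Tap2, Tapbp, Psmb8, Psmb9, Psmb10 and Nlrc5. They were chosen by name for their known roles, with earlier results of these data known, and matched by symbol. All 10 were found among the 54532 genes of the deposited table and passed the filter on low counts, which kept 14424 genes. ATDC5 is a mouse line of wild-type cartilage progenitor cells, per the labels, cultured at 37 °C in high-sugar DMEM with fetal bovine serum. Cells were exposed to 37 °C, 40 °C or 44 °C for 10 min, and RNA was sequenced from 4 biological replicates at each temperature, 12 libraries in all. The 37 °C cells were the reference, and the labels name no cytokine, drug or transgene in any group. How long after the exposure the RNA was taken is not stated, and all libraries come from 1 cell line.

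MHC class I molecules sit on the surface of nearly all nucleated cells and show CD8 T cells short peptides from proteins made inside the cell. The proteasome cuts proteins into peptides, and in its immunoproteasome form the catalytic subunits encoded by Psmb8, Psmb9 and Psmb10 replace those encoded by Psmb5, Psmb6 and Psmb7. The TAP transporter carries peptides into the endoplasmic reticulum, tapasin holds the empty class I molecule at the transporter, and the heavy chain pairs there with beta-2 microglobulin. NLRC5 drives transcription of the heavy chain genes, B2m and some others of these genes from a shared promoter module of X and Y boxes. In the heavy chain genes and B2m the module lies beside an enhancer bound by NF-kB and a site for interferon regulatory factors.

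The promoters of H2-K1 and B2m are shown because they carry the shared regulatory motifs of the class I heavy and light chains. Both are the 200 bases before the gene start in RefSeq (GRCm38.p6), 5′ to 3′ on the gene's strand, with motif matches in capitals. The H2-K1 promoter is chr17:34000334-34000533 on the minus strand and the B2m promoter is chr2:122147487-122147686 on the plus strand.
H2-K1: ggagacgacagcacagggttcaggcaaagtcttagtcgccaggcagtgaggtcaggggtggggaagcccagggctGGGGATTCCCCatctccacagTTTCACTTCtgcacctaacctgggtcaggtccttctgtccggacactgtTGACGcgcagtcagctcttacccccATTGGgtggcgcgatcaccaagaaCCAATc
B2m: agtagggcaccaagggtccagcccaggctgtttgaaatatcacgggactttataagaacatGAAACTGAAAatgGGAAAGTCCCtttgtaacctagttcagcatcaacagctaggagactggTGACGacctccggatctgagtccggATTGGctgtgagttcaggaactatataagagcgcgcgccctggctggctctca
In B2m the capitals mark, in order, the core of an interferon-stimulated response element (GAAA and GAAA with any 2 bases between), the NF-kB consensus, TGACG (found in cyclic AMP response elements and the X2 box) and CCAAT (Y box) on the other strand. In H2-K1 they mark the NF-kB consensus, the looser pair GAANNGAAA on the other strand, TGACG, and CCAAT on both strands. The looser pair was added to the search after the sequences were read.

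RefSeq promoters were found for 8 of the 10 genes, all but Tap2 and Nlrc5. The response element core was in 1 of these 8, B2m, and in 2.27% of all 32851 promoters of the same length. The NF-kB consensus was in B2m, H2-K1 and H2-D1, and in 3.18% of all promoters. CCAAT and TGACG were each in 5 of the 8, and in 29.3% and 15.7% of all promoters. The Tap1 and Psmb9 windows overlap on opposite strands, and their TGACG match is the same site counted for both genes. The looser pair was in H2-K1 and H2-D1, and in 5.0% of all promoters. Neither the tighter pair GAAANGAAA (2.05% of all promoters) nor the heat shock element (GAA, TTC and GAA with any 2 bases between each, 0.371%) was found in any of the 8 windows. All motifs were searched on both strands, and a match is a description of letters only. The H2-K1 and H2-D1 windows aligned over 154 columns with 138 identical (89.6%). Some RefSeq starts lie inside the deposited gene models, by 52 bases for Psmb10, 364 for H2-D1, 434 for Psmb9, 474 for Psmb8 and 3579 for Tapbp, so those windows may hold transcribed sequence and are not shown.

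Library totals lay between 16269026 and 19506705 counts, where 3 counts, the limit that a count of 0 allows, correspond to 0.151 to 0.190 counts per 1000000 counts of the library (CPM). The regulators Sox9 (54.2 CPM) and Runx2 (62.8 CPM) were expressed at 37 °C, while of 13 chondrocyte markers Col9a1 and Matn1 were at 0 in every library and Col2a1 (1.21 CPM) and Acan (2.13 CPM) were low. Libraries of 1 temperature also differed along a common direction, called the within-group axis here, which is the main component of how each library deviates from its group and was computed without the 10 genes. It held 29.7% of the within-group variance. Positions on it were taken from profiles centred on the mean of all 12 libraries, so they also hold temperature differences along it. The highest positions on it were those of 44 °C replicate 2 (1.61), 40 °C replicate 2 (1.56) and 44 °C replicate 4 (1.47), and the lowest those of 37 °C replicate 1 (−1.58) and 44 °C replicate 1 (−1.14). In bulk RNA, fewer cells of a type and less RNA per cell cannot be told apart.

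Class I genes fell at 44 °C. Of the 10 genes, 9 were lower at 44 °C than at 37 °C by edgeR's quasi-likelihood test at a Benjamini-Hochberg adjusted p under 0.05, none was higher, and Tap1 was not called. Among all genes tested, 7.11% were called lower, 6.58% higher and 13.7% in either direction. The 10 log2 fold changes lay between −1.11 and −0.46 with a median of −0.62, beside a median of −0.00 over all genes tested. The groups did not overlap for the same 9 genes, which was so, with 44 °C lower, for 9.13% of all genes. The count for the 10 genes was 9 or 10 when any of the 12 libraries was left out, and 10 with axis position as a covariate, where their median was −0.49 and 1624 of the 14424 genes were called lower. The count over all genes ranged from 979 without 37 °C replicate 1 to 3322 without 44 °C replicate 1, around 1975 with all libraries.

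**Figure D1:**
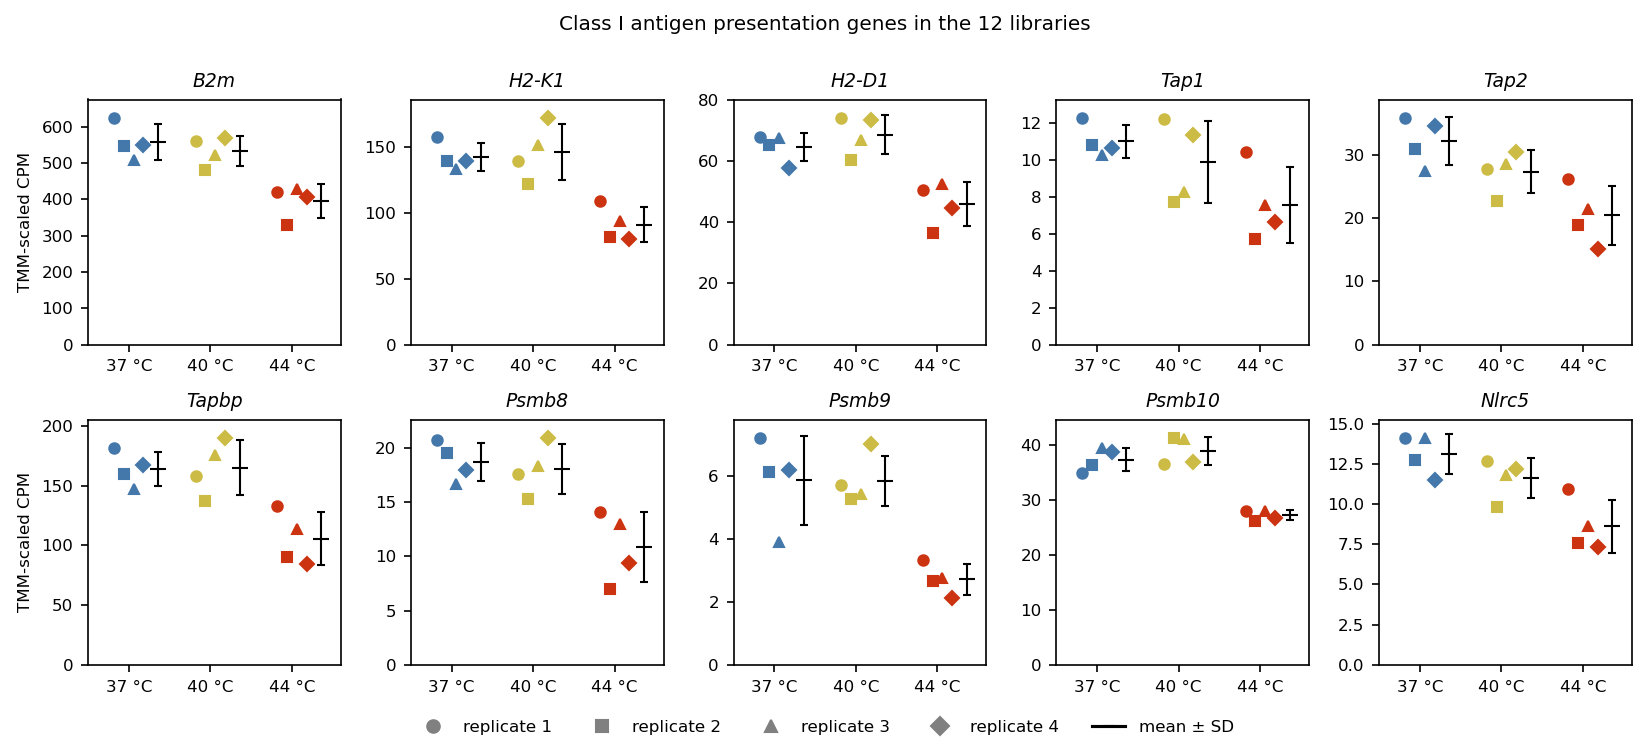
Each panel shows 1 gene, with its level in CPM on a linear axis from 0 for each of the 4 libraries at 37 °C, 40 °C and 44 °C as points, and the group mean with its SD beside them. The 44 °C points lie below all 37 °C points in every panel but that of Tap1, where 44 °C replicate 1 (10.4 CPM) lies among the 37 °C libraries.

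Compared per length, the light chain gene was far above the others. B2m had an RPKM, here CPM divided by the gene length in kilobases, of 649 ± 56.6 (SD, n = 4) at 37 °C, 79.0% of the summed RPKM of the 10 genes. Next came H2-K1 at 54.5 RPKM, Tapbp at 49.8, H2-D1 at 25.1 and Psmb10 at 21.9 RPKM. Tap2 (8.52 RPKM) and Psmb8 (6.84 RPKM) were lower, and Tap1 (2.01 RPKM), Psmb9 (1.60 RPKM) and Nlrc5 (1.54 RPKM) were the lowest. This order rests on the deposited gene lengths, which can exceed those of single transcripts: Psmb9 has 3659 bases there and 1352 in the transcript searched for shared stretches, and Psmb8 2736 and 1628. With other lengths the order of the genes below Psmb10 can change. The share of B2m depends on them too, as B2m has 860 bases in both and H2-K1 2608 and 1619. The share of B2m was 78.1% at 40 °C and 80.2% at 44 °C.

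B2m (ENSMUSG00000060802, chromosome 2, 122147686 to 122153083) encodes beta-2 microglobulin, the light chain shared by class I molecules. Its level at 37 °C was 625, 548, 509 and 550.3 CPM in replicates 1 to 4, at 40 °C 561, 479.9, 522 and 569 CPM, and at 44 °C 419, 328, 428 and 407 CPM. All 44 °C libraries lay below all others, while the 37 °C and 40 °C libraries overlapped. B2m fell by 0.50 on the log2 scale from 37 °C to 44 °C (SE 0.0849, edgeR adjusted p = 0.00222), a change of −29.1%.

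The heavy chain genes H2-K1 and H2-D1 encode the classical class I molecules that bind peptide. H2-K1 (ENSMUSG00000061232, chromosome 17, 33996017 to 34000333) had 157, 139, 133 and 139 CPM at 37 °C, 139.6, 122, 152 and 172 CPM at 40 °C and 109, 81.5, 93.7 and 80.1 CPM at 44 °C. The highest 44 °C library, replicate 1, was still below the lowest library of the other temperatures, 40 °C replicate 2. Its log2 fold change at 44 °C against 37 °C was −0.64 (SE 0.108, edgeR adjusted p = 0.00192). H2-D1 (ENSMUSG00000073411, chromosome 17, 35262730 to 35267499) had 67.8, 65.3, 67.5 and 57.8 CPM at 37 °C, 74.2, 60.4, 66.8 and 73.3 CPM at 40 °C and 50.5, 36.4, 52.6 and 44.5 CPM at 44 °C, again with no overlap between 44 °C and the rest. It fell by 0.49 (SE 0.103, edgeR adjusted p = 0.00736). Heavy chain genes are close copies of each other, so their separate values are uncertain. Of the stretches of 50 bases in the transcripts, 8.79% of those of H2-K1 and 14.3% of those of H2-D1 also occurred in other genes, and how such reads were counted is not given in the sources used here.

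Tap1 and Tap2 encode the subunits of the peptide transporter, and Tapbp encodes tapasin. Tap1 (ENSMUSG00000037321, chromosome 17, 34187553 to 34197225) had 12.3, 10.8, 10.3 and 10.7 CPM at 37 °C, 12.2, 7.72, 8.27 and 11.3 CPM at 40 °C, and 10.4, 5.70, 7.54 and 6.62 CPM at 44 °C. The 44 °C group overlapped the 37 °C group through replicate 1 alone. Its log2 fold change of −0.54 (SE 0.183) did not pass the test with edgeR (adjusted p = 0.0644). Tap1 passed as lower when 44 °C replicate 1 was left out (−0.73, edgeR adjusted p = 0.00762), when 40 °C replicate 2 was (adjusted p = 0.0459), and with DESeq2 (adjusted p = 0.0322, range over all alternatives 0.00762 to 0.179). Its log2 fold change ranged from −0.73 to −0.36 over the alternatives, the latter with axis position as a covariate (edgeR adjusted p = 0.0417).

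Tap2 (ENSMUSG00000024339, chromosome 17, 34203527 to 34216321) lay between 27.5 and 35.9 CPM at 37 °C, between 22.7 and 30.5 CPM at 40 °C and between 15.1 and 26.1 CPM at 44 °C. It fell by 0.66 against 37 °C (SE 0.143, edgeR adjusted p = 0.00861), and the 40 °C range touched that of both other groups. Tapbp (ENSMUSG00000024308, chromosome 17, 33915899 to 33929288) lay between 147 and 182 CPM at 37 °C, 137 and 190.1 CPM at 40 °C, and 84.8 and 133 CPM at 44 °C, the last below both other groups. It fell by 0.63 (SE 0.129, edgeR adjusted p = 0.00621). An antisense gene, Gm19412, covers 24.9% of the exon bases of Tapbp, and Gm15821 covers 14.1% of those of Tap2 on the other strand. Whether counting used the strand is not given in the sources used here, so reads of these partners cannot be told apart.

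The immunoproteasome gene Psmb9 had the largest fold change of the 10. Psmb9 (ENSMUSG00000096727, chromosome 17, 34181988 to 34187764), which encodes the subunit beta1i, had 7.20, 6.12, 3.89 and 6.20 CPM at 37 °C, 5.72, 5.25, 5.41 and 7.01 CPM at 40 °C and 3.32, 2.67, 2.75 and 2.11 CPM at 44 °C. All 44 °C libraries were below all others, and the low 37 °C library was replicate 3. Psmb9 fell by 1.11 on the log2 scale (SE 0.200, edgeR adjusted p = 0.00294), a change of −53.7%. It was also among the lowest of the 10 in level, so counting error weighs more on it.

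Psmb8 (ENSMUSG00000024338, chromosome 17, 34197721 to 34201454), which encodes beta5i, had 20.7, 19.5, 16.7 and 17.9 CPM at 37 °C, 17.6, 15.3, 18.3 and 20.9 CPM at 40 °C and 14.1, 7.04, 13.0 and 9.42 CPM at 44 °C. The 44 °C libraries spread over a wider range than the others but stayed below them. It fell by 0.78 (SE 0.171, edgeR adjusted p = 0.00901). Psmb10 (ENSMUSG00000031897, chromosome 8, 105935735 to 105938444), which encodes beta2i, had 35.0, 36.4, 39.5 and 38.8 CPM at 37 °C, 36.5, 41.3, 41.1 and 36.9 CPM at 40 °C and 28.1, 26.3, 28.0 and 26.7 CPM at 44 °C. Its groups were tight and 44 °C stood apart from the rest. Psmb10 had the smallest fold change of the 10, −0.46, and also the smallest standard error (0.0688) and adjusted p (0.00105, edgeR).

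Nlrc5 (ENSMUSG00000074151, chromosome 8, 94434356 to 94527272) encodes the transcriptional activator of class I genes. It had 14.1, 12.7, 14.1 and 11.5 CPM at 37 °C, 12.7, 9.81, 11.8 and 12.2 CPM at 40 °C and 10.9, 7.58, 8.65 and 7.31 CPM at 44 °C. The 44 °C libraries lay below those at 37 °C, and replicate 1 of 44 °C lay within the 40 °C range. Nlrc5 fell by 0.61 against 37 °C (SE 0.134, edgeR adjusted p = 0.00967).

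**Figure D2:**
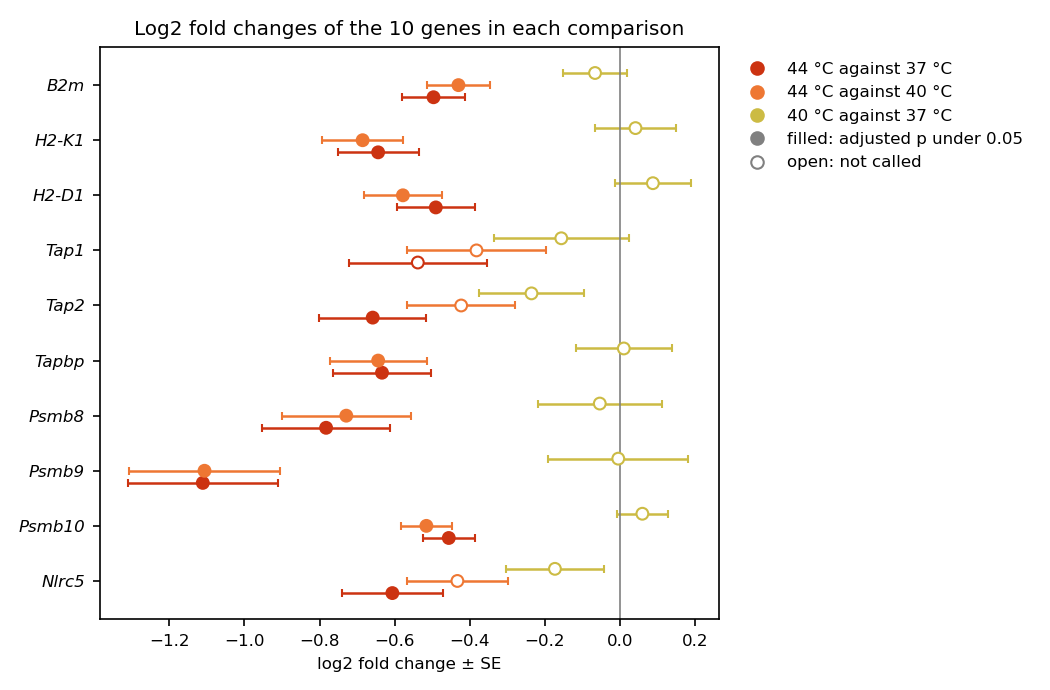
Log2 fold changes of the 10 genes with their standard errors for the 3 comparisons of temperatures. The values of 44 °C against 37 °C lie between −1.11 and −0.46 and those of 44 °C against 40 °C between −1.11 and −0.38, whereas those of 40 °C against 37 °C lie between −0.24 and 0.09.

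At 40 °C none of the 10 genes was called against 37 °C. Across all 14424 genes edgeR called 0 (0%) and DESeq2 called 0, and 752 genes (5.21%), none of them among the 10, had an unadjusted p under 0.05. The log2 fold changes of the 10 lay between −0.24 and 0.09 with a median of −0.03, and 6 of the 10 means were lower. Tap2 had the lowest value, −0.24 (SE 0.140, edgeR adjusted p = 0.823), and H2-D1 the highest, 0.09 (SE 0.102, adjusted p = 0.865). The groups overlapped for all 10 genes, where 2.23% of all genes lay lower at 40 °C with no overlap.

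Against 40 °C, 7 of the 10 genes fell at 44 °C, where 5.03% of all genes tested were called, 3.15% lower and 1.88% higher. These 7 genes also had no overlap between the groups, as 5.44% of all genes had with 44 °C lower. The median of the 10 was −0.55, beside 0.01 over all genes. The log2 fold change was −0.43 for B2m (edgeR adjusted p = 0.00834), −0.69 for H2-K1 (0.00206), −0.58 for H2-D1 (0.00493) and −0.64 for Tapbp (0.00938). For the immunoproteasome genes it was −0.73 for Psmb8 (edgeR adjusted p = 0.0232), −1.11 for Psmb9 (0.00528) and −0.52 for Psmb10 (0.000779). Tap1 (−0.38, edgeR adjusted p = 0.263), Tap2 (−0.42, adjusted p = 0.109) and Nlrc5 (−0.43, adjusted p = 0.0807) did not pass, and their groups overlapped. Without 44 °C replicate 1 all 10 passed, and the call of Psmb8 was lost without 40 °C replicate 1, 3 or 4 or without 44 °C replicate 4 (adjusted p from 0.0570 to 0.0727). The comparisons share libraries, so they do not support each other independently.

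Replicates within a temperature ranked much alike across the 10 genes. At 37 °C replicate 1 was the highest library for 9 genes, Psmb10 being the exception, and replicate 3 the lowest for 7. Replicate 2 was the lowest 40 °C library for 9 genes and replicate 4 the highest for 6, and at 44 °C replicate 1 was the highest for 8. The summed level of the 10 genes was 969 to 1158 CPM at 37 °C, 901 to 1123 CPM at 40 °C and 605 to 805 CPM at 44 °C. Libraries low in class I genes lay high on the within-group axis, where the 37 °C group had a mean position of −0.452 ± 0.834, the 40 °C group 0.0138 ± 1.10 and the 44 °C group 0.438 ± 1.33 (SD, n = 4 each). With that axis as a covariate 10 of 10 genes were called lower at 44 °C against 37 °C, 9 against 40 °C, and none at 40 °C against 37 °C. Calls over all genes rose too, to 3157 (1624 lower) against 37 °C and 2545 (1379 lower) against 40 °C, from 1975 and 725 of 14424. For 44 °C against 37 °C the log2 fold changes in this fit were −0.41 for B2m, −0.51 for H2-K1, −0.40 for H2-D1, −0.36 for Tap1, −0.50 for Tap2 and −0.48 for Tapbp. They were −0.61 for Psmb8, −0.93 for Psmb9, −0.47 for Psmb10 and −0.50 for Nlrc5, so that 9 of the 10 were closer to 0 than without the covariate and Psmb10 was not. These adjusted p are too small, since the axis was built from the same libraries. The positions also hold temperature differences, so this fit does not take out within-group variation alone. The part of the axis in the result was not otherwise tested.

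**Figure D3:**
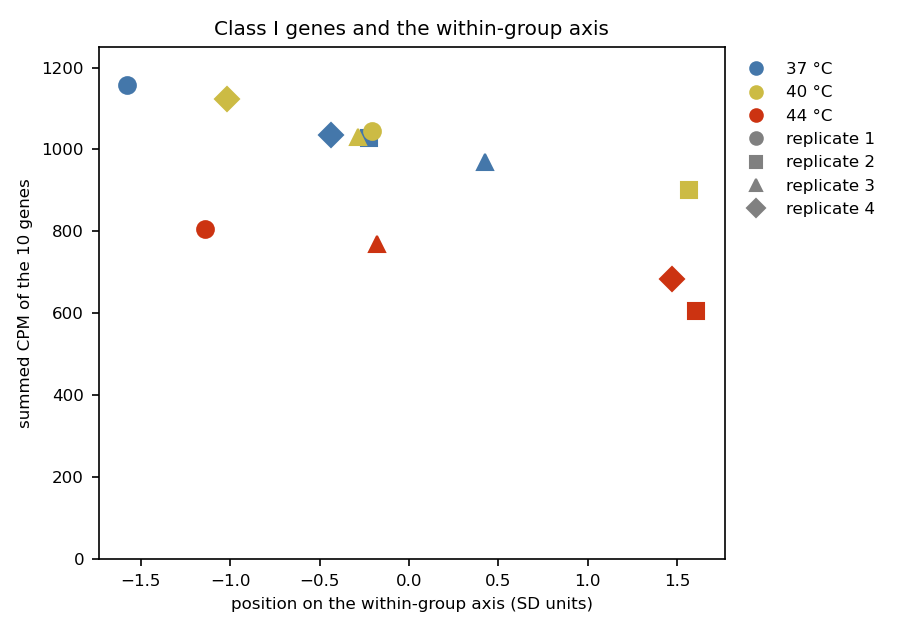
Summed level of the 10 genes in CPM, on a linear axis from 0, against each library's position on the within-group axis, with 1 point per library, coloured by temperature and shaped by replicate number. Within each temperature the library highest in summed level lies lowest on the axis, and the 44 °C libraries (605 to 805 CPM) lie below the 37 °C and 40 °C libraries (901 to 1158 CPM) at like positions.

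Ratios within a library do not depend on its scaling. The immunoproteasome genes were therefore set against the constitutive subunits they replace. Each count was divided by its deposited gene length, so the levels of the ratios, but not their log2 differences, rest on those lengths. The ratio of Psmb9 to Psmb6 was 0.0246, 0.0195, 0.0118 and 0.0199 in the 37 °C libraries. It was 0.0168, 0.0163, 0.0170 and 0.0229 in those of 40 °C, and 0.0107, 0.00808, 0.00872 and 0.00579 in those of 44 °C. The 44 °C ratios were below all others, with a log2 difference of −1.17 against 37 °C (exact permutation test, two-sided p = 0.0286, adjusted p = 0.0857). Psmb10 to Psmb7 was 0.703 ± 0.0225 in the 37 °C group, 0.742 ± 0.0652 in the 40 °C group and 0.512 ± 0.0708 in the 44 °C group (SD, n = 4 each), a log2 difference of −0.47 (exact permutation p = 0.0286, adjusted p = 0.0857). Psmb8 to Psmb5 was 0.0753 ± 0.0119 and 0.0461 ± 0.0169 at 37 °C and 44 °C (SD, n = 4 each), with overlapping groups (log2 difference −0.77, exact permutation p = 0.0571, adjusted p = 0.122).

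Heavy to light chain ratios were compared in the same way. At 44 °C against 37 °C, H2-K1 to B2m was 0.0841 ± 0.00146 in the 37 °C group and 0.0761 ± 0.00939 in the 44 °C group (SD, n = 4 each), a log2 difference of −0.15 (exact permutation p = 0.2, adjusted p = 0.3). H2-D1 to B2m was 0.0388 ± 0.00414 and 0.0386 ± 0.00224 (SD, n = 4 each), a log2 difference of −0.00 (exact permutation p = 1). Against 40 °C, the H2-D1 to B2m ratio at 44 °C (0.0365 to 0.0410) lay below all 40 °C libraries (0.0419 to 0.0441), a log2 difference of −0.15 (exact permutation p = 0.0286, adjusted p = 0.0857). For H2-K1 to B2m that difference was −0.25 (exact permutation p = 0.114, adjusted p = 0.214). Adjusted over the 15 ratio comparisons none passed 0.05. The smallest p that 4 against 4 libraries allow is 0.0286, and the smallest adjusted p reached was 0.0857.

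**Figure D4:**
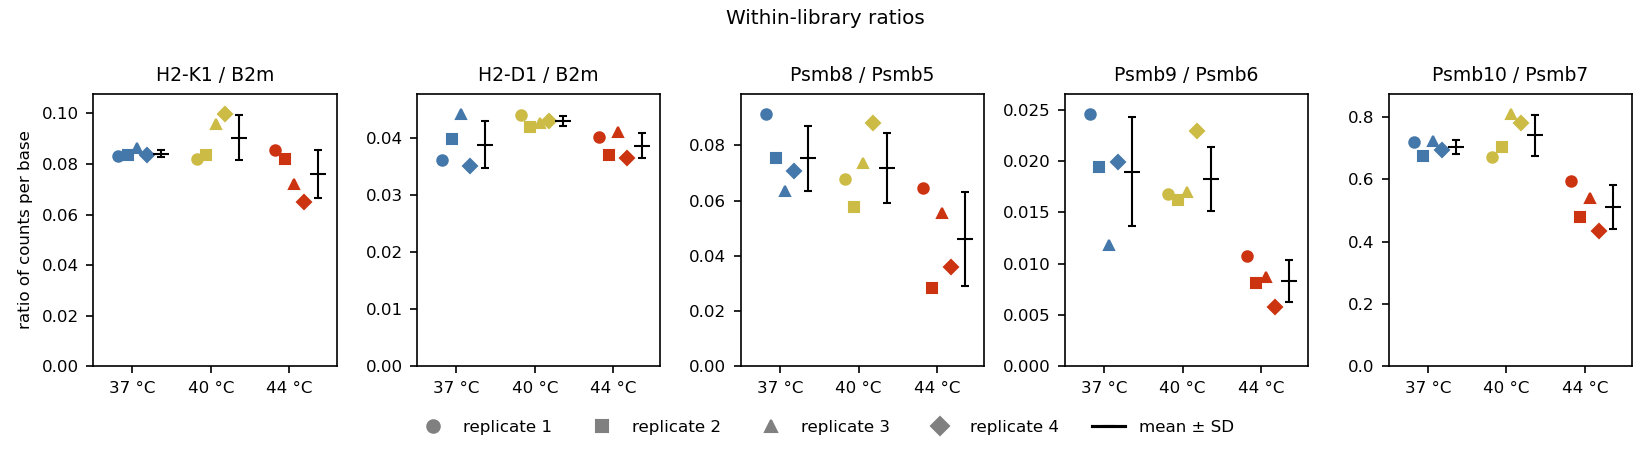
Ratios of 5 gene pairs within each library on linear axes from 0, with 1 point per library and the group mean with its SD at 37 °C, 40 °C and 44 °C. The Psmb9 to Psmb6 and Psmb10 to Psmb7 ratios at 44 °C lie below all libraries of the other temperatures, and those of H2-D1 to B2m overlap between 37 °C and 44 °C.

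The other genes of the pathway were described by lists, beside the shares of all genes called given above. These lists, too, were chosen with earlier results of these data known. Of 19 further class I heavy chain and class I-like genes in the table, 11 were tested and 4 fell at 44 °C against 37 °C, with a median of −0.45 and none higher. H2-T23, which encodes the nonclassical molecule Qa-1, fell from 46.4 ± 9.26 to 21.9 ± 4.73 CPM (SD, n = 4 each; log2 fold change −1.08, edgeR adjusted p = 0.00174). H2-T24 (−1.16, edgeR adjusted p = 0.0346), H2-Q4 (−0.72, adjusted p = 0.0288) and H2-T22 (−0.46, adjusted p = 0.0367) fell as well, and each lost its call in 6 to 8 of the 19 or 20 alternatives tried. Those not called were Fcgrt (−0.40), Hfe (−0.41), H2-Q1 (−0.25), H2-M3 (−0.29), H2-T10 (−0.23), Cd1d1 (−0.60) and Mr1 (−0.45). H2-Q6, H2-T3 and H2-M2 were at 0 in every library. Against 40 °C only H2-T23 of the 11 was called (−1.06, edgeR adjusted p = 0.00329).

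Of 14 tested genes of peptide loading and trimming, 4 fell at 44 °C against 37 °C and none rose, with a median of −0.10. Calr, which encodes the chaperone calreticulin of the loading complex, had a log2 fold change of −0.80 (edgeR adjusted p = 7.86e-07). Pdia3, which encodes the disulfide isomerase ERp57 bound to tapasin, fell from 375.8 ± 3.34 to 270.8 ± 10.1 CPM (SD, n = 4 each; −0.47, edgeR adjusted p = 1.6e-05). Erap1, the peptidase gene that trims peptides in the endoplasmic reticulum, fell from 86.7 ± 3.32 to 65.6 ± 2.87 CPM (SD, n = 4 each; −0.40, edgeR adjusted p = 0.000558). The tapasin relative Tapbpl fell by 0.51 (edgeR adjusted p = 0.0170), and calnexin (Canx) had −0.11 (adjusted p = 0.294). Calr, Pdia3 and Erap1 were also lower than at 40 °C.

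Of 31 genes of the constitutive proteasome, Psma7 was called lower (−0.15, edgeR adjusted p = 0.0496) and Psmd13 higher (0.20, adjusted p = 0.0181), with a median of 0.07 at 44 °C against 37 °C, and these calls were lost in 14 and 5 of 20 alternatives. The replaced subunit genes Psmb5 (−0.06, edgeR adjusted p = 0.608), Psmb6 (0.08, adjusted p = 0.380) and Psmb7 (0.02, adjusted p = 0.907) were not called. Of 10 activator and assembly genes the interferon-inducible activator genes Psme2 and Psme1 were called lower. Psme2 had a log2 fold change of −0.61 (edgeR adjusted p = 0.00289) and Psme1 −0.28 (adjusted p = 0.0155). The assembly chaperone gene Psmg1 was called higher (0.31, edgeR adjusted p = 0.0488), and Pomp, which encodes the proteasome maturation protein, had 0.15 (adjusted p = 0.201).

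Among 20 tested transcription regulators of class I genes, 2 fell and 2 rose at 44 °C against 37 °C, with a median of −0.04. Irf7, an interferon regulatory factor gene, had 89.5, 67.3, 61.5 and 74.8 CPM at 37 °C and 41.9, 18.7, 32.3 and 20.4 CPM at 44 °C, with no overlap (log2 fold change −1.37, edgeR adjusted p = 0.00174). Irf9, a gene of the interferon-activated factor ISGF3, fell by 0.36 (edgeR adjusted p = 0.0412). Nfya, which encodes a subunit of the Y box factor NF-Y, rose by 0.29 (edgeR adjusted p = 0.00891) and Irf8 by 0.35 (adjusted p = 0.0202). Irf9 was chosen after its values were seen, as was Psmg1 above, and their calls were lost in 9 and 11 of 20 alternatives. Irf1 (−0.10, edgeR adjusted p = 0.452), Irf2 (−0.10, adjusted p = 0.455), the X box factor gene Rfx5 (−0.03, adjusted p = 0.845) and the NF-kB gene Rela (0.10, adjusted p = 0.410) were not called. Ciita, the class II counterpart of Nlrc5, had at most 8 counts in any library and was not tested.

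Interferon messages themselves were at or near the floor of detection. Ifng, Ifna4, Ifnl2 and Ifnl3 had 0 counts in all 12 libraries and Ifnb1 had 6 counts in all. Of 11 tested receptor, kinase and feedback genes, 6 fell at 44 °C against 37 °C and none rose, with a median of −0.25. The feedback inhibitor genes Socs3 (log2 fold change −0.89, edgeR adjusted p = 2.75e-05) and Socs1 (−0.48, adjusted p = 0.00134) and the kinase gene Jak2 (−0.43, adjusted p = 0.0138) were examples. Of 29 interferon-stimulated antiviral genes, 18 fell and none rose, with a median of −0.56. Ifitm3, which encodes a membrane protein that blocks virus entry, fell from 454.7 ± 19.1 to 227.5 ± 33.0 CPM (SD, n = 4 each; edgeR adjusted p = 8.66e-06), beside log2 fold changes of −1.25 for Bst2 and −1.40 for Lgals3bp. Against 40 °C 15 of the 29 were called lower.

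**Figure D5:**
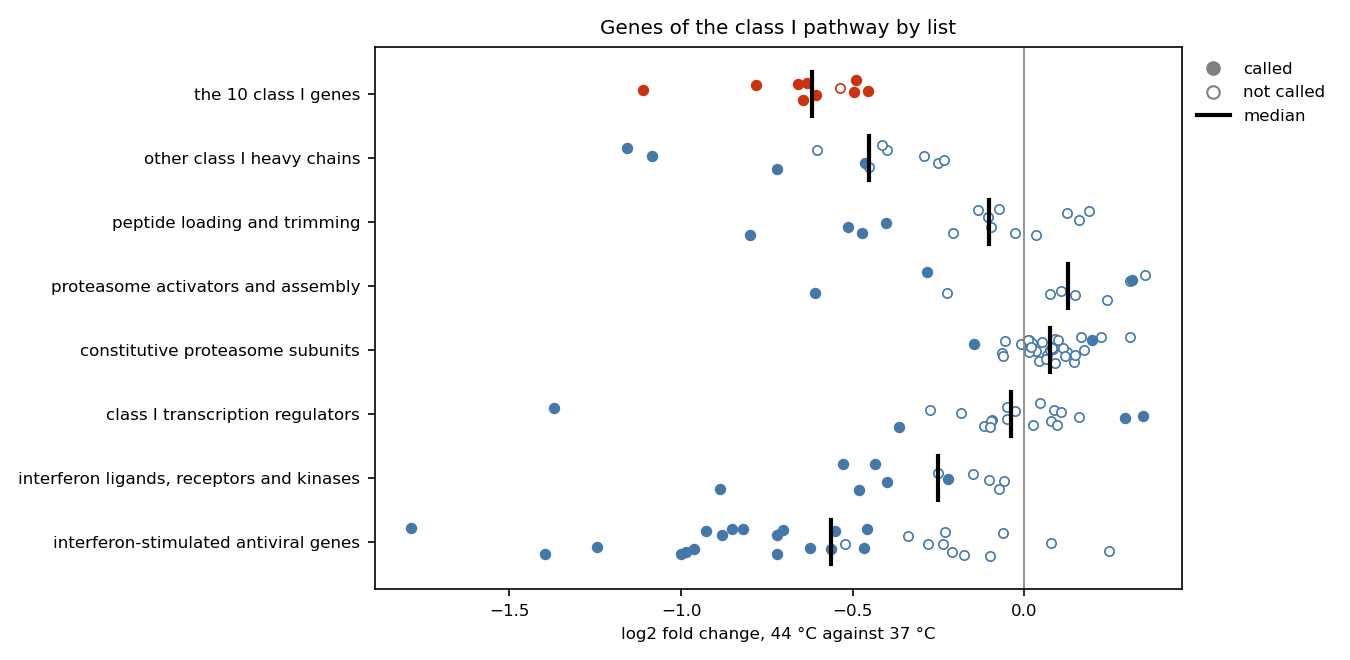
Log2 fold changes at 44 °C against 37 °C of every tested gene of the 10 class I genes and the related lists, with 1 point per gene, filled where called, and the median of each list as a bar. The median is −0.62 for the class I genes and −0.56 for the antiviral genes, and near 0 for the constitutive proteasome (0.07) and the class I regulators (−0.04).

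Markers of blood cell types were mostly below the filter on low counts. At 44 °C against 37 °C, 7.11% of all genes tested were called lower and 6.58% higher. Of 13 macrophage and leukocyte markers 3 were tested, the defining markers Adgre1, C1qa and Tyrobp were at 0 in all libraries and Ptprc had 1 count in all 12. The summed level of that list was 41.8 to 58.3 CPM at 37 °C and 30.3 to 42.5 CPM at 44 °C, most of it Cd68, and Mpeg1 was called lower (−1.52, edgeR adjusted p = 0.00132). None of 7 lymphocyte markers was tested, with Cd3e and Ncr1 at 0 throughout. Of 7 dendritic cell markers 2 were tested and neither was called, and Cd209a was at 0. Only H2-DMa of 10 MHC class II genes was tested, and it was not called (−0.01, edgeR adjusted p = 0.993).

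The smooth muscle and perivascular markers that passed the filter also fell at 44 °C. Of 8 such markers 3 were tested and all 3 fell at 44 °C against 37 °C: Acta2 (−0.76), Pdgfrb (−0.78) and Cspg4 (−0.31). Their summed level was 201 to 231 CPM at 37 °C and 136 to 159 CPM at 44 °C. The call of Cspg4 was lost in 13 of 20 alternatives, and Myh11, Tagln, Cnn1, Des and Rgs5 did not pass the filter. Of 5 endothelial markers 3 were tested, and Pecam1 (1.14) and Cdh5 (1.26) rose from a summed list level of 2.49 to 3.70 CPM to 4.25 to 6.18 CPM, with the call of Cdh5 lost in 13 of 18 alternatives. Of 13 chondrocyte markers 8 were tested and only Prg4 was called, as lower (−0.86). The summed level of that list was 131 to 168 CPM at 37 °C and 113 to 155 CPM at 44 °C. Among all genes tested, 7.11% were called lower and 6.58% higher in this comparison. The part of these shifts in the class I result was not tested.

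Of the 10 genes 7 lie on chromosome 17 within the MHC region, and Psmb9, Tap1, Psmb8 and Tap2 lie side by side within 34.33 kb (chromosome 17, 34181988 to 34216321, mm10). Psmb9 and Tap1 are transcribed in opposite directions and their exons overlap by 212 bases in the annotation, 5.79% of the exon bases of Psmb9 and 3.87% of those of Tap1. These neighbours differed in fold change at 44 °C against 37 °C, from −1.11 for Psmb9 and −0.78 for Psmb8 to −0.66 for Tap2 and −0.54 for Tap1. The difference between them was not tested. Another antisense gene, Gm20496, overlaps 14.7% of the exon bases of Psmb8. B2m is on chromosome 2, and Psmb10 and Nlrc5 are on chromosome 8.

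Profiles over the 12 libraries were compared by the root mean square difference of log2 CPM, each profile centred on its own mean. The candidates were 9896 other genes with a mean of at least 5 CPM. Pseudogenes and genes with predicted-gene or clone names were left out. The nearest to B2m were Npc2 (0.0426), Serpinb6b (0.0596), Zcchc24 (0.0657), Cav1 (0.0703) and Plac8 (0.0735), where the median over all candidates was 0.287. The nearest to H2-K1 were Btd (0.0640), Fam160a1 (0.0657), Apol9b (0.0675), Tspo (0.0696) and Ly6e (0.0726), and Tapbp, among the 10 genes, was closer at 0.0605. For Tap1 the nearest were Casp12 (0.108), Fbxl20 (0.112), Mt1 (0.113), Pxmp4 (0.114) and Vasn (0.117), farther off than for B2m and H2-K1. Of the 10 genes, H2-D1 was nearest to B2m (0.113) and Nlrc5 nearest to Tap1 (0.150). Both were farther off than all the genes listed for that target. The measure describes these 12 libraries, which share the temperature groups and the within-group axis.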

How the data were processed

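The files hold counts per gene in 12 RNA-seq libraries, 1 column per sample, deposited by the authors as raw counts. The submitters' processing notes list featureCounts 1.5.0-p3, HISAT2 2.0.5, fastp and StringTie 1.3.3b with build mm10. The notes give no roles or order. Strand use and the handling of reads with several matches are not given in the sources used here. Per the labels' protocols, libraries were made from poly-A RNA with random hexamer primers. The table holds 0 columns of other samples.

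In R 4.3.3, edgeR 4.0.16 kept genes by filterByExpr (minimum count 10, minimum total 15), scaled libraries by TMM and fitted 1 mean per temperature to all 12 libraries. The p-values of two-sided quasi-likelihood F-tests received the Benjamini-Hochberg adjustment over 14424 genes, with calls made at an adjusted p under 0.05. SE was derived from the fold change and the F statistic. CPM uses TMM-scaled totals, and RPKM divides it by the deposited gene length. Floors cover counting error only, whereas SD and SE also hold the spread between replicates. The procedure was tested on simulated data with the same spread between replicates for every gene and no within-group axis. That test therefore does not cover the effect of the axis on the calls.

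Ratios are of counts within a library, each divided by the deposited gene length, compared on the log2 scale by exact permutation tests. Alternatives were DESeq2 1.42.0, library totals in place of TMM, no filter, a mean of at least 5 CPM, a replicate block, only the 8 libraries compared, a threshold of 0.01, axis position as a covariate, each library left out and, for ratios, 0.5 added to both counts. All members were named, together with regulators, loading, trimming and proteasome genes listed by name, the tested heavy chain genes, up to 3 called genes with the smallest p of each other list, and the 5 nearest profiles of B2m, H2-K1 and Tap1. The values of 1 named regulator are not reported here. The members and lists were chosen with earlier results of these data known. The deposited table gave names, lengths and coordinates, exon overlaps are from GENCODE M21, and promoters are from RefSeq. No pair of replicates agreed within sampling noise (chi-square per gene 2.85 to 20.9 over 18 pairs).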

Additional observations from a re-analysis of the deposited data

Results flagged for a closer look

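The ratio of Psmb9 to Psmb6 at 40 °C replicate 4 was 0.0229, apart from the other 40 °C libraries at 0.0163 to 0.0170. Its gap to the nearest library was 0.888 of the group's range, above the critical value of Dixon's test for 4 samples. Of 48 groups of 4 libraries tested this was the only 1, and chance gives about 1 in 20.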

How the results depend on the processing

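The counts of called class I genes stayed on the same side in the alternatives run: 8 to 10 of 10 for 44 °C against 37 °C, 6 to 10 for 44 °C against 40 °C and 0 for 40 °C against 37 °C. The lowest counts, 8 and 6, came with a mean of at least 5 CPM, which leaves Psmb9 untested, and 6 also at a threshold of 0.01, with only the 8 libraries compared and without 40 °C replicate 1, 3 or 4 or 44 °C replicate 4. No class I gene lost its call for 44 °C against 37 °C in an alternative that tested it.

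Counts over all genes moved more. For 44 °C against 37 °C they were 630 at a threshold of 0.01 and 3157 with the within-group axis. For 44 °C against 40 °C they were 1176 with DESeq2, 334 with only the 8 libraries compared, 270 at 0.01 and 2545 with the axis, against 725. For 40 °C against 37 °C they were 13 with no filter and 11 with the axis. Leaving out 1 library gave 979 to 3322, 394 to 1261 and 0 to 1 in these 3 comparisons. For 44 °C against 37 °C the count was 979 without 37 °C replicate 1, 1156 without replicate 2 and 1063 without replicate 4, and 3322, 980 and 1064 without 44 °C replicates 1, 2 and 4. For 44 °C against 40 °C it was 394, 421 and 420 without 40 °C replicates 1, 3 and 4, and 1261, 426 and 456 without 44 °C replicates 1, 2 and 4. The cause was not tested.

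Whether the replicate numbers pair the samples is not stated in the labels and was not tested. Deviations of same-numbered libraries correlated between −0.207 and 0.366, above 0.1 in 3 of 12 pairs, and 6 of 12 libraries correlated best with their own number. The replicate block gave 2557 genes for 44 °C against 37 °C and 901 against 40 °C, 10 and 8 of them class I genes, with Tap1 called at an edgeR adjusted p of 0.0153.

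Signs turned only in differences that were not called. At 40 °C against 37 °C Psmb9 had 0.0041 with DESeq2, 0.016 with the replicate block and 0.095 with the axis, and −0.16 to 0.12 with 1 library left out. Tapbp had −0.0088 with library totals and −0.062 to 0.089 with 1 library left out. Psmb8 had 0.044 with the axis and −0.13 to 0.015 with 1 library left out, and H2-K1 had −0.045 to 0.12 in the same way. At 44 °C against 37 °C Rfx5 had 0.010 and Psmb7 −0.081 with the axis, and Psmb7 had −0.054 to 0.078 with 1 library left out. Psmb9, at 2.11 to 7.20 CPM, was the member with the lowest counts, where 3 counts correspond to 0.151 to 0.190 CPM.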
